A study of Homo sapiens with 6 samples.

Results

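The genes described here are the sensors of foreign or misplaced nucleic acids and the interferon signalling chain downstream of them. 32 genes were listed by name for their known roles, with no threshold on a measured value. This list and the others below were chosen with earlier results of these data known, so their shares are not independent of those results. Each gene was read from its probe set with a single gene symbol and the highest mean signal. 30 of the 32 had such a probe set, out of 18417 genes in the series, and STAT2 and TREX1 were not analysed here. The 30 genes comprise 4 RNA sensors, 4 sensors of DNA or Z-form nucleic acid, 5 adaptors and kinases, 7 genes for interferon beta and the interferon regulatory factors, 4 receptor chains, 4 JAK kinases and STAT factors, and 2 feedback inhibitors.

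Total RNA of 3 near isogenic human cell lines was hybridized to Affymetrix Gene 1.0 ST arrays, with 2 biological replicates per line and 6 arrays in all. BJELM cells descend from BJEL cells by retroviral transfer of MYC-ER, a fusion of MYC with an estrogen receptor domain, and were kept in G-418, hygromycin, puromycin and, without interruption, 4-hydroxytamoxifen, the ligand of that domain. BJEL cells are BJ cells with the telomerase gene hTERT and the SV40 early region, which encodes the large T and small t antigens, and were kept in G-418 and hygromycin. BJ cells are primary foreskin fibroblasts, grown without selection. BJELM cells thus carry every element of BJEL cells, the selection drugs and the tamoxifen derivative cannot be told apart from the introduced genes, and whether a line is 1 clone is not given in the sources used here.

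Cells detect viral or displaced self nucleic acid with a small set of receptors. RIG-I and MDA5 bind double-stranded RNA in the cytosol and signal through MAVS, TLR3 binds it in endosomes, and cGAS binds cytosolic DNA and signals through STING. These routes meet at the kinases TBK1 and IKK epsilon, which activate IRF3 and IRF7 and so the interferon beta gene. Secreted interferon acts through IFNAR1 and IFNAR2, the kinases JAK1 and TYK2 and a complex that contains STAT2 and IRF9 and binds the interferon-stimulated response element, while interferon gamma acts mainly through the GAS element. Several sensors and signalling components are themselves targets of this complex, and SOCS1 and SOCS3 restrain the JAK kinases.

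The start site windows of these genes show which of them hold the core letters of the element that this complex binds. A window holds 250 bases before and 50 bases from the annotated transcription start, taken from RefSeq on GRCh38.p14, and 24 of the 32 genes matched the table, 22 of them measured on the arrays. The core of the response element was searched as GAAANNGAAA on both strands, so that a match on the other strand reads TTTCNNTTTC. It was present for 5 of the 22 genes, 22.7%, namely IFIH1, TLR3, AIM2, MYD88 and SOCS1, while 3.57% of all 35116 promoter windows and 4.38% of all genes in the table held it. 4 of these windows are shown with each match in capitals, together with that of RIGI, which is shown because the gene rose in the same comparison as IFIH1 while its window holds no match.
IFIH1, chr2:162318635-162318934, minus strand: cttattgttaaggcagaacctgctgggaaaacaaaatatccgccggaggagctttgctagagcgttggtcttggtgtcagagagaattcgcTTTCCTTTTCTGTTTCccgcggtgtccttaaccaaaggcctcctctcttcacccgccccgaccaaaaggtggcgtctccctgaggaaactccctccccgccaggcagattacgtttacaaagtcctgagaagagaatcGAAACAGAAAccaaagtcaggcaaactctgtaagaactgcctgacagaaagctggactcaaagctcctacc
TLR3, chr4:186068906-186069205, plus strand: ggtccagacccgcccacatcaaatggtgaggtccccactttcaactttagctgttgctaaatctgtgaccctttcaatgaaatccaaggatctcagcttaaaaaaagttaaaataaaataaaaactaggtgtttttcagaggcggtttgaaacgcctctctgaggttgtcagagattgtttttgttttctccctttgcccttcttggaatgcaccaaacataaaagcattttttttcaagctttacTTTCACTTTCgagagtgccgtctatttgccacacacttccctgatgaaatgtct
MYD88, chr3:38138411-38138710, plus strand: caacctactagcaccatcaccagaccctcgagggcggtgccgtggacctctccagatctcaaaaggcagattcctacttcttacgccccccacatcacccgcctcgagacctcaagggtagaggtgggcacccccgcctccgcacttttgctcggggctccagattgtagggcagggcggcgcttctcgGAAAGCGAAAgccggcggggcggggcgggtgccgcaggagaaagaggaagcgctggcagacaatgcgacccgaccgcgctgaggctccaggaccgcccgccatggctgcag
SOCS1, chr16:11256155-11256454, minus strand: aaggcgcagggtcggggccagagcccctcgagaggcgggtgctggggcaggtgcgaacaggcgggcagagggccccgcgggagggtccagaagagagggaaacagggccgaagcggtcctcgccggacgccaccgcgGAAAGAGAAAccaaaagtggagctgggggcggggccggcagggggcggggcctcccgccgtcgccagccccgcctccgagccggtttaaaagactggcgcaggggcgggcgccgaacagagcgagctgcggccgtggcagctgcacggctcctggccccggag
RIGI, chr9:32526147-32526446, minus strand: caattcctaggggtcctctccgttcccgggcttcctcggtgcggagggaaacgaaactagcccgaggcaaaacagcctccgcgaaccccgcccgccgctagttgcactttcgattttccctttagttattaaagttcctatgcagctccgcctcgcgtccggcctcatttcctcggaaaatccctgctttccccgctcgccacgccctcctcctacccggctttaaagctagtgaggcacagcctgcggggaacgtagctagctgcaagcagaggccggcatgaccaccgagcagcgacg

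In IFIH1, a pair of overlapping matches on the other strand occupied positions -159 to -150 and -153 to -144 from the start site, and the third lay on the gene's strand at -21 to -12. The TLR3 match spanned the start site, at -4 to 6, and those of MYD88 and SOCS1 lay at -61 to -52 and -113 to -104. AIM2 had a match at -190 to -181 on the other strand. The GAS core was searched as TTCNNNGAA on both strands. It was held by 9.19% of the measured genes in the table, 9.38% of all its genes and 7.66% of all promoter windows. Among the 22 genes it was found for 5, 22.7%. These were TLR3 with 2 matches, MYD88 with a match that overlaps its response element, IFNB1, IRF1 and IRF9. A match is a stretch of letters in these windows and was not tested for binding. A window with no match says nothing of sites elsewhere, or of GAAA repeats with a spacer other than 2 bases. The promoter table does not list IRF2, IRF3, IRF7, IFNAR2, DHX58, ZBP1, CGAS and STING1.

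**Figure D1:**
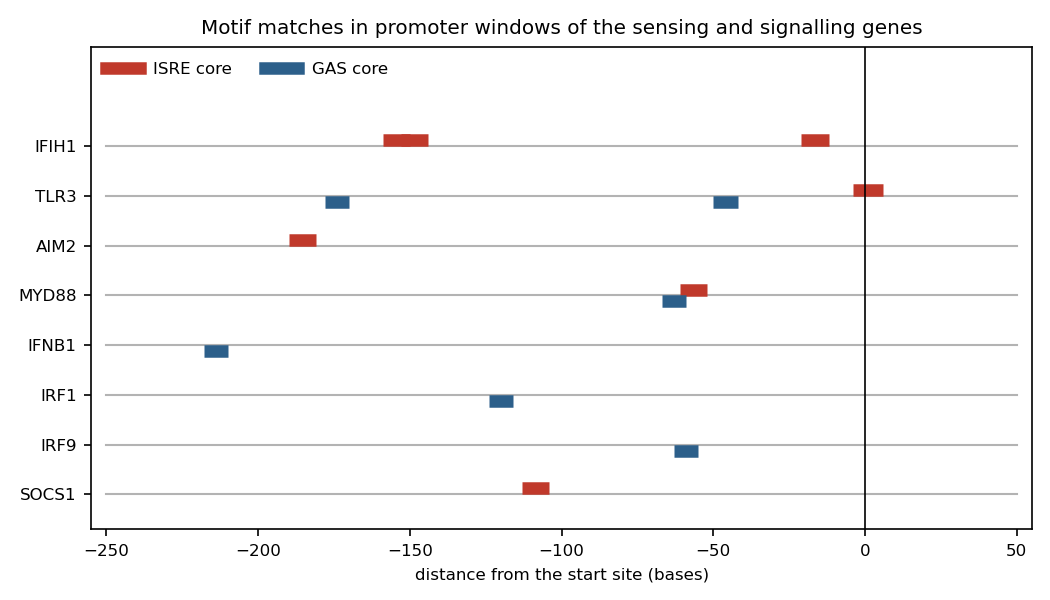
Positions of motif matches in the start site windows of sensing and signalling genes that hold at least 1 match, with the distance from the transcription start in bases on the horizontal axis and 1 row per gene. Red marks above the row are the interferon-stimulated response element core (ISRE) and blue marks below it the GAS core, and IFIH1 has 3 matches of the response element.

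Values are log2 probe set signals on the authors' normalized scale, given for replicates 1 and 2 in that order, and changes are log2 differences ± SE from limma with n = 2 arrays per line. A gene is said to have risen or fallen only with an adjusted p under 0.05 together with a change of at least 2-fold. Array medians lay between 6.37 and 6.46, and arrays correlated across genes at 0.993 to 0.995 within a line and 0.943 to 0.981 between lines. TERT averaged 10.81 on the BJELM-labelled arrays, 10.84 in BJEL and 7.82 in BJ. MYC went against the BJELM label, with 9.57 and 8.90 on the BJELM-labelled arrays, 10.22 and 10.12 in BJEL and 9.47 and 9.61 in BJ, so these arrays are called by their label throughout. Whether this probe set reads MYC-ER is not given in the sources used here, and the study's own assays of MYC and MYC-ER by other methods were not used here, so the signal alone does not show that the label is wrong. Its difference from BJEL was -0.93 ± 0.21 (adjusted p = 0.0444), which without BJELM replicate 1 was -1.27 (adjusted p = 0.00947). The mean of 9 fibroblast markers was 9.26 to 9.89 on the BJELM-labelled arrays, 9.79 to 9.86 in BJEL and 11.39 to 11.60 in BJ, where every marker averaged at least 9.29. The part of that shift in the changes below was not tested. Leukocytes use many of the same sensors. The mean of 6 leukocyte markers was 6.06 to 6.09 on the BJELM-labelled arrays, 6.23 to 6.24 in BJEL and 6.27 to 6.31 in BJ. These markers differed widely. PTPRC, which defines leukocytes, was at 4.37 to 4.51 on the 6 arrays. CD68, the highest, averaged 10.28 on the BJELM-labelled arrays, 11.36 in BJEL and 11.32 in BJ.

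Of the 30 genes, 11 rose or fell in at least 1 of the 3 comparisons, STING1 in all 3, 5 genes in 2 and 5 genes in 1. In BJEL against BJ, 5 genes rose and 1 fell, where 2.89% of all genes rose and 2.29% fell. Against BJ, 0 rose on the BJELM-labelled arrays, where 4.09% of all genes did, and 3 fell, where 4.70% did. Against BJEL, 0 rose on these arrays, where 0.923% of all genes did, and 9 fell, where 1.76% did. The median change of the 30 genes was 0.16 in BJEL against BJ, -0.35 on the BJELM-labelled arrays against BJ and -0.56 against BJEL, while the median over all genes lay between -0.02 and 0.03. The 3 falls against BJ became 6 without BJELM replicate 1, the 9 against BJEL became 5 without BJEL replicate 1, and the 1 in BJEL against BJ became 0 without BJEL replicate 2 or BJ replicate 1. The 3 comparisons share arrays, so their counts are not independent of each other. With 2 arrays per line, the 2 lines compared did not overlap for 61.2% of all genes in BJEL against BJ. On the BJELM-labelled arrays this held for 60.5% against BJ and 52.8% against BJEL, so lines without overlap are common. 22 of the 30 genes lay at or above the median level of all genes, 7.26, and 27 had a mean of at least 6 in at least 1 line. In bulk RNA fewer expressing cells cannot be told apart from less RNA per cell.

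**Figure D2:**
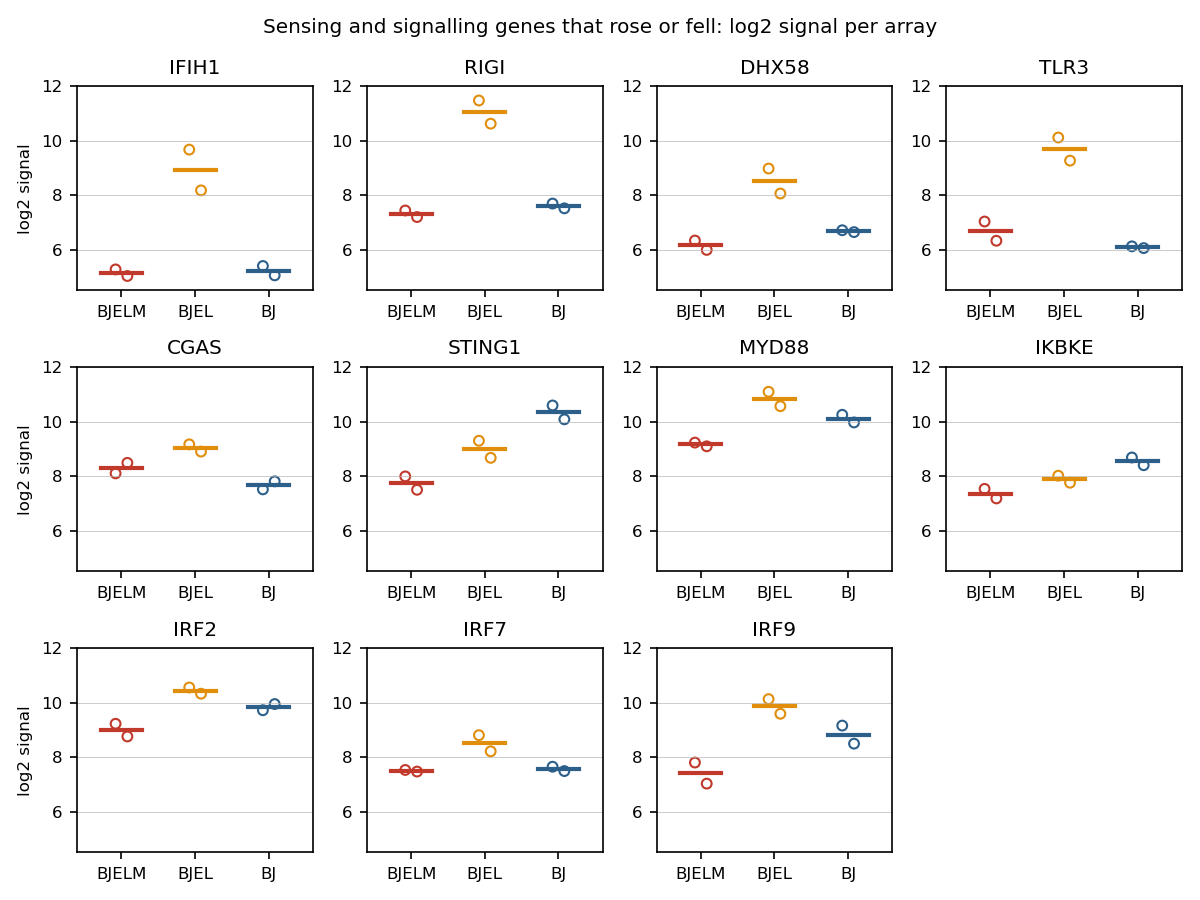
Log2 signal on each array of the 11 sensing and signalling genes that rose or fell in at least 1 comparison, 1 panel per gene, with BJELM-labelled, BJEL and BJ arrays from left to right. Points are arrays and horizontal lines are the mean of 2 arrays. IFIH1, RIGI, DHX58 and TLR3 are high in BJEL alone, while STING1 is highest in BJ and lowest on the BJELM-labelled arrays.

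All 4 RNA sensors rose in BJEL against BJ, by 1.84 to 3.69, and all 4 fell on the BJELM-labelled arrays against BJEL, with changes of -2.35 to -3.77. None of them rose or fell on the BJELM-labelled arrays against BJ, where the changes ran from -0.52 to 0.59. IFIH1 (Entrez 64135, chromosome 2) encodes MDA5, which recognises long double-stranded RNA. It had 5.27 and 5.03 on the BJELM-labelled arrays, 9.67 and 8.17 in BJEL and 5.40 and 5.05 in BJ. Both BJEL arrays stood above the other 4, though 1.50 apart, and the BJELM-labelled and BJ arrays overlapped. The change was 3.69 ± 0.45, 12.9-fold, in BJEL against BJ (adjusted p = 0.00391) and -3.77 ± 0.45 on the BJELM-labelled arrays against BJEL (adjusted p = 0.00704).

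RIGI (Entrez 23586, chromosome 9), formerly DDX58, encodes RIG-I, the sensor of short double-stranded RNA with a 5′ triphosphate. Its signal was 7.43 and 7.19 on the BJELM-labelled arrays, 11.47 and 10.62 in BJEL and 7.69 and 7.51 in BJ, so that the BJELM-labelled arrays lay just below the BJ arrays and far below BJEL. RIGI rose by 3.44 ± 0.27, 10.9-fold, in BJEL against BJ (adjusted p = 0.00118) and changed by -3.73 ± 0.27 on the BJELM-labelled arrays against BJEL (adjusted p = 0.00190). DHX58 (Entrez 79132, chromosome 17) encodes LGP2, a relative of both that lacks their signalling domain and modulates them. It had 6.33 and 5.99 on the BJELM-labelled arrays, 8.97 and 8.05 in BJEL and 6.71 and 6.64 in BJ. Its rise of 1.84 ± 0.29 in BJEL against BJ (adjusted p = 0.00953) was the smallest of the 4, and without BJ replicate 1 it was 1.87 with an adjusted p of 0.0551. Against BJEL, DHX58 on the BJELM-labelled arrays changed by -2.35 ± 0.29 (adjusted p = 0.00753).

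TLR3 (Entrez 7098, chromosome 4), the endosomal receptor of double-stranded RNA, had 7.03 and 6.32 on the BJELM-labelled arrays, 10.11 and 9.26 in BJEL and 6.12 and 6.05 in BJ. The BJELM-labelled arrays were both above the BJ arrays, by 0.59 ± 0.32 on average, which did not pass the test (adjusted p = 0.260). In BJEL against BJ the rise was 3.60 ± 0.32, 12.1-fold (adjusted p = 0.00167), and the BJELM-labelled arrays against BJEL gave -3.01 ± 0.32 (adjusted p = 0.00556).

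Among the sensors of DNA and Z-form nucleic acid, CGAS alone rose in BJEL against BJ, and none of the 4 fell in any comparison. CGAS (Entrez 115004, chromosome 6) encodes the enzyme that makes cyclic GMP-AMP, the messenger read by STING, when it meets cytosolic DNA. It had 8.10 and 8.48 on the BJELM-labelled arrays, 9.16 and 8.90 in BJEL and 7.51 and 7.80 in BJ, and the 3 lines did not overlap. CGAS rose by 1.37 ± 0.18 in BJEL against BJ (adjusted p = 0.00462). The BJELM-labelled arrays lay between the other lines, 0.63 ± 0.18 above BJ (adjusted p = 0.0413) and -0.74 ± 0.18 from BJEL (adjusted p = 0.0499), both under 2-fold.

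IFI16, a nuclear and cytosolic DNA sensor, had 10.26 and 10.07 on the BJELM-labelled arrays, 11.40 and 10.90 in BJEL and 10.58 and 10.49 in BJ. On the BJELM-labelled arrays against BJEL it changed by -0.98 ± 0.17 (adjusted p = 0.0212), just under 2-fold, and it passed 2-fold without BJELM replicate 1, at -1.08, without BJEL replicate 2, at -1.24, and after median centring, at -1.02 (adjusted p of 0.0444, 0.0176 and 0.0257). AIM2, its neighbour on chromosome 1 with 0 protein-coding genes between them, assembles an inflammasome on cytosolic DNA. AIM2 had 4.22 and 4.19 on the BJELM-labelled arrays, 5.46 and 4.31 in BJEL and 4.20 and 4.14 in BJ. A single array, BJEL replicate 1, thus stood apart, and the change in BJEL against BJ was 0.71 ± 0.34 (adjusted p = 0.220). Without BJEL replicate 2 it was 1.29 in BJEL against BJ (adjusted p = 0.00639) and -1.25 on the BJELM-labelled arrays against BJEL (adjusted p = 0.0107). ZBP1, a sensor of Z-form nucleic acid, stayed between 5.83 and 6.17 on the 6 arrays, and no comparison passed the test.

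The adaptors and kinases did not move as a group. STING1 (Entrez 340061, chromosome 5), the adaptor that reads cyclic GMP-AMP, was lower in both derived lines. It had 7.99 and 7.50 on the BJELM-labelled arrays, 9.29 and 8.67 in BJEL and 10.59 and 10.08 in BJ, so that the lines were separate and in the order BJ, BJEL and BJELM from high to low. STING1 changed by -2.59 ± 0.28 on the BJELM-labelled arrays against BJ, 6.04-fold lower (adjusted p = 0.00145), and by -1.35 ± 0.28 in BJEL against BJ (adjusted p = 0.0231). Its enzyme partner CGAS was higher in BJEL than in BJ, a change of opposite sign on the same arrays. The BJELM-labelled arrays against BJEL gave -1.24 ± 0.28 (adjusted p = 0.0438). That call was lost when any 1 array of the series was left out, with changes between -0.93 and -1.55 and adjusted p between 0.0514 and 0.192, and the call in BJEL against BJ was lost without BJEL replicate 2, at -1.04 (adjusted p = 0.0936), or BJ replicate 1, at -1.10 (adjusted p = 0.125).

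MYD88 (Entrez 4615, chromosome 3), the adaptor of most Toll-like receptors other than TLR3, had 9.23 and 9.09 on the BJELM-labelled arrays, 11.09 and 10.56 in BJEL and 10.25 and 9.97 in BJ. The BJ arrays lay between the derived lines without overlap. MYD88 fell by 1.67 ± 0.19 on the BJELM-labelled arrays against BJEL, 3.18-fold (adjusted p = 0.00647), and was 0.72 ± 0.19 higher in BJEL than in BJ without passing the test (adjusted p = 0.0510). Against BJ the BJELM-labelled arrays gave -0.95 ± 0.19 (adjusted p = 0.0134), under 2-fold, and passed it without BJELM replicate 1, at -1.02 (adjusted p = 0.0357), or BJ replicate 2, at -1.09 (adjusted p = 0.0309).

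IKBKE (Entrez 9641, chromosome 1) encodes IKK epsilon, the inducible relative of TBK1. Its signal was 7.53 and 7.18 on the BJELM-labelled arrays, 8.01 and 7.75 in BJEL and 8.68 and 8.40 in BJ, again with the highest arrays in BJ. It fell by 1.19 ± 0.17 on the BJELM-labelled arrays against BJ (adjusted p = 0.00362), and the smaller change of -0.66 ± 0.17 in BJEL against BJ had an adjusted p of 0.0448. MAVS, the mitochondrial adaptor of RIG-I and MDA5, had 8.46 and 8.30 on the BJELM-labelled arrays, 8.87 and 9.05 in BJEL and 9.00 and 9.10 in BJ. MAVS on the BJELM-labelled arrays changed by -0.67 ± 0.11 against BJ (adjusted p = 0.00554) and by -0.58 ± 0.11 against BJEL (adjusted p = 0.0233), both under 2-fold. TBK1, the constitutive kinase of the pathway, stayed between 8.77 and 9.09, and its 3 changes lay between -0.08 and 0.14 without passing the test.

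IFNB1, which encodes interferon beta, had 4.23 and 4.23 on the BJELM-labelled arrays, 4.27 and 4.29 in BJEL and 4.20 and 4.19 in BJ. The 3 changes lay between -0.05 and 0.09, each with an SE of 0.08, and none passed the test (adjusted p from 0.522 to 0.820). No background level comes with these signals, so neither presence nor absence of the transcript is read from them. IRF3, the factor that TBK1 activates and which needs no induction, had 8.72 and 8.62 on the BJELM-labelled arrays, 9.19 and 9.01 in BJEL and 9.02 and 8.81 in BJ, with no change past the test. IRF5 stayed between 5.42 and 5.67.

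The interferon regulatory factors that did move were IRF2, IRF7 and IRF9, all 3 lower on the BJELM-labelled arrays than in BJEL. IRF9 (Entrez 10379, chromosome 14) encodes the DNA-binding subunit of the complex that contains STAT2. It had 7.80 and 7.02 on the BJELM-labelled arrays, 10.12 and 9.59 in BJEL and 9.15 and 8.49 in BJ, with no overlap between lines. IRF9 fell by 2.44 ± 0.34 on the BJELM-labelled arrays against BJEL, 5.44-fold (adjusted p = 0.0105), and by 1.41 ± 0.34 against BJ (adjusted p = 0.0245), while BJEL against BJ gave 1.03 ± 0.34 (adjusted p = 0.0921). Replicate 1 was the higher array in all 3 lines, by 0.77 on the BJELM-labelled arrays, 0.54 in BJEL and 0.66 in BJ, and the test takes these gaps as spread within a line. The call against BJEL was lost without BJEL replicate 1, at -2.18 (adjusted p = 0.0663), and that against BJ without BJELM replicate 2, at -1.02 (adjusted p = 0.0898), or BJ replicate 1, at -1.08 (adjusted p = 0.126).

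IRF2 (Entrez 3660, chromosome 4), which binds the same element as IRF1 and mostly represses the target genes, had 9.22 and 8.75 on the BJELM-labelled arrays, 10.55 and 10.32 in BJEL and 9.72 and 9.94 in BJ. It fell by 1.45 ± 0.18 on the BJELM-labelled arrays against BJEL (adjusted p = 0.00753), which without BJEL replicate 1 was -1.34 (adjusted p = 0.0552). Against BJ the BJELM-labelled arrays gave -0.84 ± 0.18 (adjusted p = 0.0161), which passed 2-fold without BJELM replicate 1, at -1.08 (adjusted p = 0.00794). IRF7 (Entrez 3665, chromosome 11), the interferon-induced amplifier of interferon production, had 7.53 and 7.47 on the BJELM-labelled arrays, 8.80 and 8.21 in BJEL and 7.64 and 7.48 in BJ. Its change of -1.01 ± 0.19 on the BJELM-labelled arrays against BJEL (adjusted p = 0.0260) was barely 2-fold. The call was lost when any 1 array except BJEL replicate 2 was left out, with changes between -0.71 and -1.04, and after quantile normalization, at -0.96. In BJEL against BJ, IRF7 was 0.94 ± 0.19 higher (adjusted p = 0.0220), under 2-fold, and passed it without BJEL replicate 2, at 1.24 (adjusted p = 0.00913).

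IRF1, induced mainly by interferon gamma, was also highest in BJEL, without passing the test. It had 7.84 and 7.27 on the BJELM-labelled arrays, 8.61 and 8.10 in BJEL and 7.60 and 7.38 in BJ, which gave 0.87 ± 0.24 in BJEL against BJ (adjusted p = 0.0565) and -0.80 ± 0.24 on the BJELM-labelled arrays against BJEL (adjusted p = 0.0921). Without BJELM replicate 1 the change against BJEL was -1.08 (adjusted p = 0.0493).

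**Figure D3:**
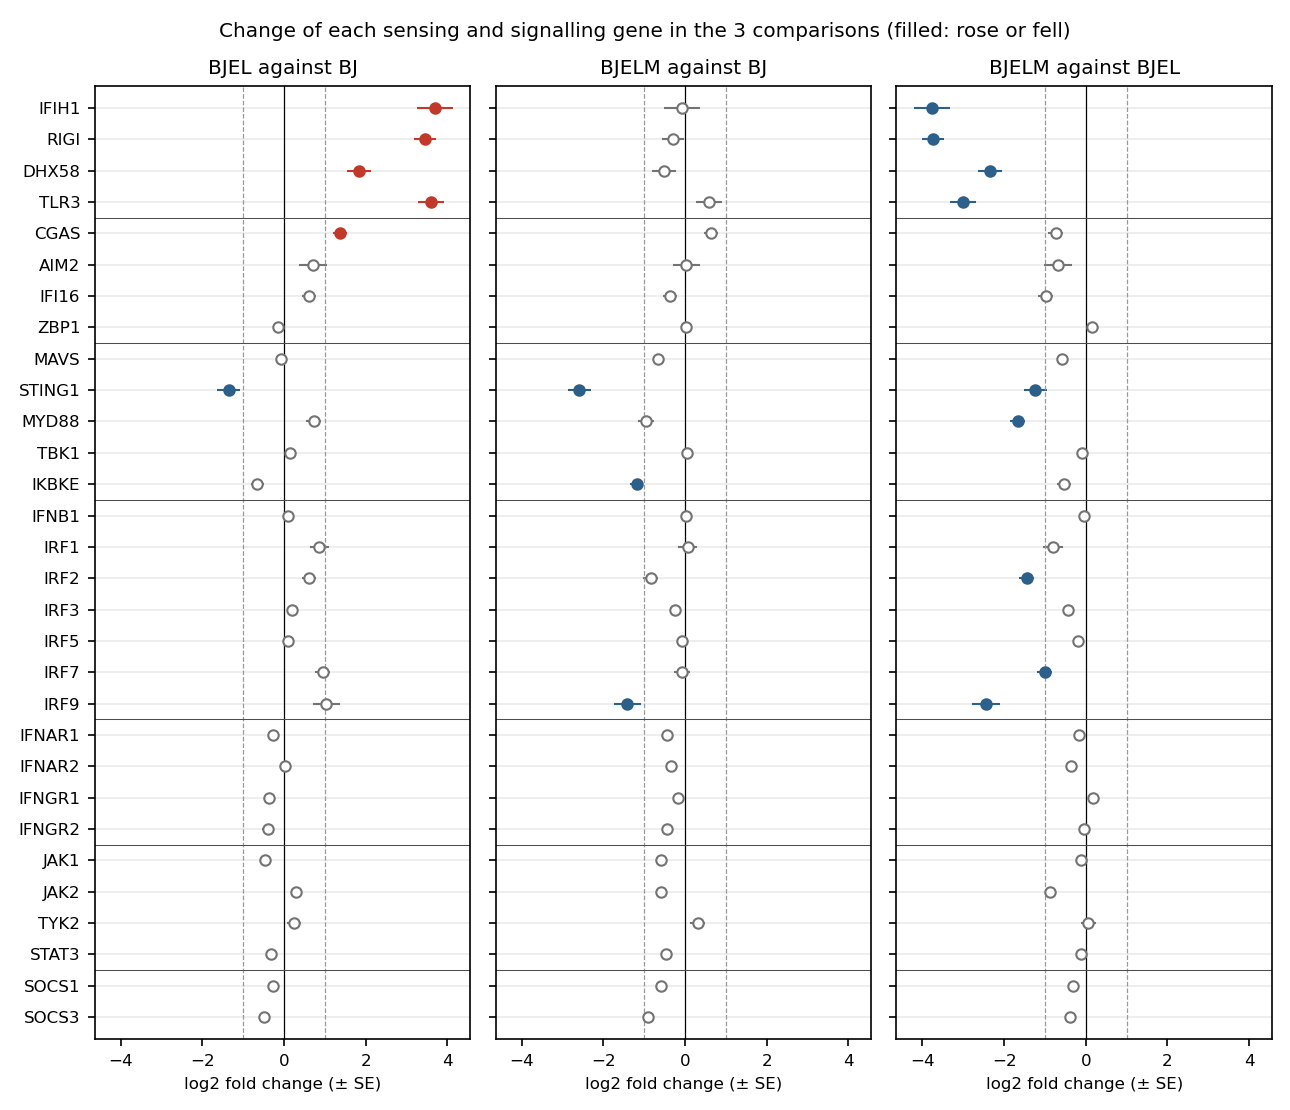
Log2 change of each of the 30 sensing and signalling genes on the horizontal axis, with 1 panel per comparison and 1 row per gene in order of role. Error bars are 1 SE, dashed lines mark 2-fold and filled symbols mark genes that rose or fell. The RNA sensors lie far to the right in BJEL against BJ and far to the left on the BJELM-labelled arrays against BJEL, and the receptors and JAK kinases lie within 1 log2 unit of 0 in all 3.

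None of the receptor chains, JAK kinases, STAT3 or feedback genes rose or fell in any comparison, although several passed the test under 2-fold. Over all 30 genes, 10 were lower on the BJELM-labelled arrays than in BJ with an adjusted p under 0.05 and a change under 2-fold, where 8.36% of all genes were, and 1 was higher, where 11.1% were. In BJEL against BJ, 3 were lower and 1 higher in this way, against 4.84% and 7.50% of all genes. On the BJELM-labelled arrays against BJEL, 4 were lower and 0 higher, against 4.52% and 3.61% of all genes.

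The receptor chains IFNAR1 and IFNAR2 form the receptor of type I interferons, and IFNGR1 and IFNGR2 that of interferon gamma. IFNAR1 had 8.79 and 8.85 on the BJELM-labelled arrays, 8.90 and 9.05 in BJEL and 9.14 and 9.38 in BJ. IFNGR2 had 9.26 and 9.05 on the BJELM-labelled arrays, 9.31 and 9.08 in BJEL and 9.69 and 9.51 in BJ. Each gene was highest in BJ and changed by -0.44 on the BJELM-labelled arrays against BJ (adjusted p = 0.0321 for IFNAR1 and 0.0485 for IFNGR2). IFNAR2 stayed between 7.30 and 7.78 and IFNGR1 between 8.37 and 8.81, and neither passed the test in any comparison. IFNAR2, IL10RB, IFNAR1 and IFNGR2 follow each other on chromosome 21 with 0 protein-coding genes between neighbours, and IL10RB, a chain of the interferon lambda receptor, changed by -0.52 on the BJELM-labelled arrays against BJ (adjusted p = 0.0103).

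JAK1, which serves both receptors, had 10.56 and 10.34 on the BJELM-labelled arrays, 10.48 and 10.63 in BJEL and 11.07 and 10.98 in BJ. Both derived lines were below BJ, by -0.58 ± 0.11 on the BJELM-labelled arrays (adjusted p = 0.0109) and -0.47 ± 0.11 in BJEL (adjusted p = 0.0357). JAK2, the partner kinase at the interferon gamma receptor, had 6.28 and 6.51 on the BJELM-labelled arrays, 7.29 and 7.24 in BJEL and 7.04 and 6.93 in BJ. It was lower on the BJELM-labelled arrays alone, by -0.87 ± 0.11 against BJEL (adjusted p = 0.00758) and -0.59 ± 0.11 against BJ (adjusted p = 0.00927). TYK2, the kinase bound to IFNAR1, stayed between 8.09 and 8.73 with no change past the test. STAT3, which answers mainly to the interleukin 6 family, had 10.97 and 10.78 on the BJELM-labelled arrays, 11.12 and 10.88 in BJEL and 11.40 and 11.27 in BJ, with -0.45 ± 0.12 on the BJELM-labelled arrays against BJ (adjusted p = 0.0365).

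SOCS1 and SOCS3 bind and inhibit JAK kinases and are induced by the cytokines they restrain. SOCS1 had 6.85 and 7.04 on the BJELM-labelled arrays, 7.28 and 7.24 in BJEL and 7.59 and 7.47 in BJ. Although its start site window holds the response element core, it was not higher in BJEL, where the change against BJ was -0.27 ± 0.10 (adjusted p = 0.130), and the BJELM-labelled arrays gave -0.58 ± 0.10 against BJ (adjusted p = 0.00762). SOCS3 had 7.04 and 6.77 on the BJELM-labelled arrays, 7.33 and 7.26 in BJEL and 7.79 and 7.81 in BJ. Its change on the BJELM-labelled arrays against BJ was -0.90 ± 0.11 (adjusted p = 0.00231), which passed 2-fold without BJELM replicate 1, at -1.03 (adjusted p = 0.00300), and BJEL against BJ gave -0.50 ± 0.11 (adjusted p = 0.0284).

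Set against the promoter sequences, the 5 measured genes with a response element core did not share a direction in BJEL against BJ. IFIH1 and TLR3 rose, MYD88 was higher and AIM2 high on 1 array without passing the test, and SOCS1 was lower without passing it. RIGI rose with no match in its window, where GAAA repeats lie at other spacings that the search did not count. DHX58 and CGAS rose but are not in the promoter table.

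A wider list of 66 genes of the same pathways, such as other Toll-like receptors, ubiquitin ligases, nucleases and kinases, was read in the same way, and 61 of them were measured. In BJEL against BJ 5 rose, 8.20% of the list where 2.89% of all genes did, and 2 fell, 3.28% where 2.29% did. Against BJ, 1 rose on the BJELM-labelled arrays, 1.64% where 4.09% of all genes did, and 4 fell, 6.56% where 4.70% did. Against BJEL, 0 rose on these arrays, where 0.923% of all genes did, and 6 fell, 9.84% where 1.76% did. The falls in both comparisons with BJ were thus near the share of all genes, and the list medians lay between -0.14 and -0.01. USP18, which removes ISG15 from proteins and blocks the type I interferon receptor, rose and fell in the same comparisons as the RNA sensors. It had 7.13 and 6.82 on the BJELM-labelled arrays, 11.45 and 9.98 in BJEL and 7.67 and 7.51 in BJ, and rose by 3.12 ± 0.44 in BJEL against BJ (adjusted p = 0.00628), with -3.74 ± 0.44 on the BJELM-labelled arrays against BJEL (adjusted p = 0.00686). SAMHD1, a deoxynucleotide hydrolase that limits cytosolic DNA, had 9.91 and 9.81 on the BJELM-labelled arrays, 11.74 and 11.04 in BJEL and 8.93 and 8.74 in BJ. It rose by 2.55 ± 0.22 in BJEL against BJ (adjusted p = 0.00155) and by 1.03 ± 0.22 on the BJELM-labelled arrays against BJ (adjusted p = 0.0175), and the call against BJ was lost when any 1 of the 4 arrays compared was left out, at 0.93 to 1.12, and after quantile normalization, at 0.97, or median centring. SAMHD1 on the BJELM-labelled arrays also fell against BJEL, by 1.53 ± 0.22 (adjusted p = 0.0123), which without BJELM replicate 2 was -1.47 (adjusted p = 0.0562).

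TLR4, the receptor of bacterial lipopolysaccharide, and SOCS2, a feedback inhibitor of growth hormone signalling, were lowest on the BJELM-labelled arrays and highest in BJ, as was STING1. TLR4 had 5.73 and 5.52 on the BJELM-labelled arrays, 7.34 and 6.83 in BJEL and 9.15 and 8.93 in BJ, and fell by 3.41 ± 0.19 on the BJELM-labelled arrays against BJ (adjusted p = 0.000208). TLR4 changed by -1.96 in BJEL against BJ and by -1.46 on the BJELM-labelled arrays against BJEL. SOCS2 had 7.20 and 7.39 on the BJELM-labelled arrays, 8.16 and 8.12 in BJEL and 10.14 and 9.69 in BJ, a change of -2.63 ± 0.16 on the BJELM-labelled arrays against BJ (adjusted p = 0.000274), and fell by 1.78 in BJEL against BJ. ENPP1, which degrades cyclic GMP-AMP outside cells, changed by -1.48 ± 0.08 on the BJELM-labelled arrays against BJ (adjusted p = 0.000228). In BJEL against BJ it changed by -0.92 ± 0.08 (adjusted p = 0.00167), under 2-fold, and passed 2-fold after quantile normalization, at -1.01. OPTN, a ubiquitin-binding partner of TBK1, changed by -1.50 ± 0.19 on the BJELM-labelled arrays against BJ (adjusted p = 0.00234). OPTN also fell by 1.25 ± 0.19 on the BJELM-labelled arrays against BJEL (adjusted p = 0.0130), a call lost without BJELM replicate 2, at -0.99, or BJEL replicate 1, at -1.11. The other genes of the list that rose or fell, named after their values were seen, were the RIG-I ubiquitin ligase TRIM25, the RNase H2 subunit RNASEH2A and the double-stranded RNA kinase EIF2AK2, which rose in BJEL against BJ by 1.19, 1.13 and 1.34, and EIF2AK2 and the deubiquitinase CYLD, which fell on the BJELM-labelled arrays against BJEL by 1.34 and 1.22.

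Of 25 interferon-stimulated target genes, all measured, 22 rose in BJEL against BJ, 88.0% where 2.89% of all genes did, with a median change of 3.97. On the BJELM-labelled arrays against BJEL 24 fell, 96.0% where 1.76% of all genes did, with a median of -4.06. This list, too, was chosen with earlier results of these data known. Against BJ, 0 rose on the BJELM-labelled arrays, where 4.09% of all genes did, and 5 of the 25 fell, where 4.70% did. These 5 were IFIT1, IFIT2, IFIT3, IFITM1 and PARP9, and the list median was -0.38. The targets outside these counts were ISG15, TAP1 and IFITM1 in BJEL against BJ, at 1.55, 1.50 and 0.86, and ISG15 on the BJELM-labelled arrays against BJEL, at -1.74, and these names were chosen after the values were seen. RSAD2, the antiviral enzyme viperin, had 5.04 and 4.86 on the BJELM-labelled arrays, 11.50 and 9.94 in BJEL and 4.93 and 4.97 in BJ. IFI44L, MX1 and OAS2 rose by 5.60, 5.31 and 5.01 in BJEL against BJ. The response element core was in the start site window of 71.4% of the 21 target genes in the promoter table. The largest change among the 30 sensing and signalling genes in BJEL against BJ was that of IFIH1, 3.69, below the median of these targets.

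Replicate 1 exceeded replicate 2 for 23 of the 30 genes on the BJELM-labelled arrays, 22 in BJEL and 22 in BJ, where 57.9%, 51.7% and 58.3% of all genes did. The median of replicate 1 minus replicate 2 over the 30 genes was 0.17, 0.23 and 0.09 in these lines. The widest gap was 1.50, for IFIH1 in BJEL, and 0.77 and 0.66 for IRF9 on the BJELM-labelled and BJ arrays. Of the 25 target genes, 21 were higher in replicate 1 than in replicate 2 on the BJELM-labelled arrays, all 25 in BJEL and 21 in BJ. The medians of replicate 1 minus replicate 2 over these targets were 0.26, 0.95 and 0.24.

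**Figure D4:**
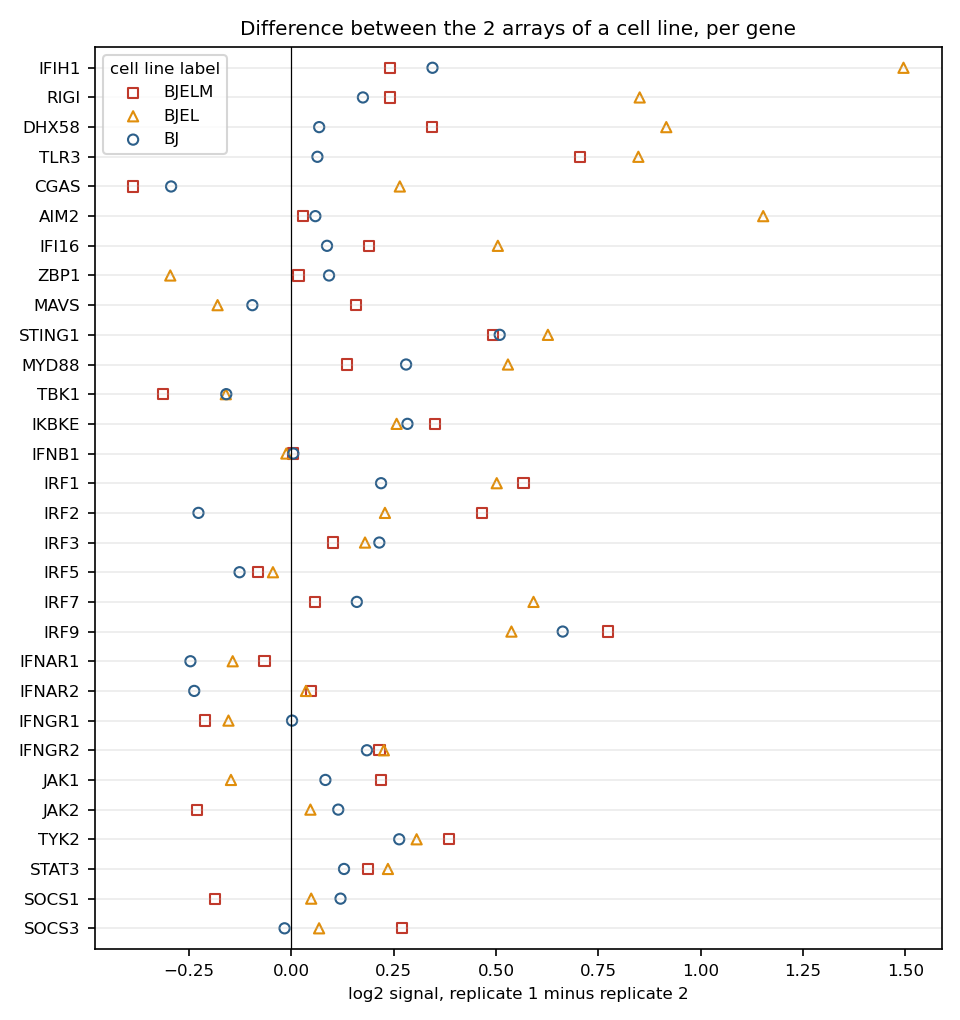
Replicate 1 minus replicate 2 in log2 signal on the horizontal axis, with 1 row for each of the 30 sensing and signalling genes. Squares are the BJELM-labelled, triangles the BJEL and circles the BJ arrays, and the triangle of IFIH1 lies farthest from 0, at 1.50.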

How the data were processed

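Gene expression was measured in BJELM, BJEL and BJ cells on 6 arrays, 2 biological replicates per line. Per the submitters' processing notes, the authors made the deposited log2 signals by RMA in Affymetrix Expression Console 1.3.1, which corrects background, equalizes the arrays' distributions and summarizes each probe set. RMA removes any shift shared by all genes, and an array has no count depth, so the number of arrays limits the precision. p-values set a change against the spread between these arrays within a line, estimated in part from all genes. The build of the array annotation is not given in the sources used here, and chromatin and genotyping data were not used here.

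Of 33297 probe sets, 19460 had 1 gene symbol, and a gene was read from its probe set with the highest mean, which gave 18417 genes, 18389 of them matched to RefSeq by Entrez ID. STAT2, TREX1, RNF125, TICAM2 and TLR5 were not analysed here. limma 3.58.1 in R 4.3.3 fitted all 6 arrays with 1 mean per line (3 residual and 3.13 prior degrees of freedom). Tests were two-sided, with Benjamini-Hochberg adjustment over all genes of a comparison. The fit was tested on simulated data with independent noise on each array, so correlated deviations of same-numbered arrays were not covered. The 32 genes and the other lists were chosen with earlier results of these data known. All measured genes of the first list were described, and up to 6 of the wider list and 4 of the targets were named by the largest change among those that rose or fell, with TERT and MYC as introduced genes. Alternatives left out each array, fitted only the 2 lines compared or the replicate block, and changed the normalization, filter, probe set rule, thresholds and test.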

Additional observations from a re-analysis of the deposited data

How the results depend on the processing

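Results for single genes were followed only where the adjusted p was under 0.05 or some setting gave a call, which left 68. Of their values under the alternatives, 1064 kept their direction and side of the threshold, 105 lost the call, 37 gained it and 0 reversed. Many settings change only the test, block, filter, thresholds or arrays of the line not compared. These leave the change itself as it was, so no reversal was possible there. Leaving out each array in turn gave 4 to 7 sensing and signalling genes that rose in BJEL against BJ (5 with all arrays) and 0 to 1 that fell (1), 2 to 6 that fell on the BJELM-labelled arrays against BJ (3) and 5 to 10 that fell against BJEL (9), with 0 that rose in both. The wider list then held 5 to 8, 4 to 6 and 4 to 7 calls in BJEL against BJ, on the BJELM-labelled arrays against BJ and on these against BJEL (7, 5 and 6), and the target list 19 to 24, 4 to 6 and 22 to 25 (22, 5 and 24). Counts moved by over 1.5 times came without BJEL replicate 1 (5 that fell against BJEL) and without BJELM replicate 1 (6 that fell against BJ), and 0 fell in BJEL against BJ without BJEL replicate 2 or BJ replicate 1. Where 1 array of a line was left out, the lone array is assumed to vary like the other lines.

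In BJEL against BJ, a filter at the median level left 3 genes that rose, an adjusted p under 0.01 left 0 that fell, and no fold minimum gave 4 that fell. On the BJELM-labelled arrays against BJ, no fold minimum gave 1 that rose and 13 that fell. Without a fold minimum the wider list held 17, 24 and 12 calls in the same 3 comparisons. The methods' t-test for unequal variances, run in its plain form without adjustment, gave 1 that rose, CGAS, and 0 that fell in BJEL against BJ. On the BJELM-labelled arrays against BJEL it gave 2 that fell. In the wider list it gave 2 calls in BJEL against BJ and 1 on the BJELM-labelled arrays against BJEL, and in the target list 6, 3 and 11 calls in the 3 comparisons. After Benjamini-Hochberg adjustment it gave 0 calls in every list and comparison. By limma, 21, 15 and 19 of the 30 genes had an unadjusted p under 0.05, a looser rule with no fold minimum. Among all 18417 genes 5638, 6873 and 4687 did.

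Replicates share only a number. Deviations of same-numbered arrays correlated at 0.553 for BJELM and BJEL, 0.481 for BJELM and BJ and 0.448 for BJEL and BJ. With the replicate block, 6 sensing and signalling genes rose and 1 fell in BJEL against BJ, 3 fell on the BJELM-labelled arrays against BJ and 9 against BJEL, and IRF9 passed in BJEL against BJ (1.03, adjusted p = 2.60e-04). The block gave 7, 5 and 7 calls in the wider list and 24, 7 and 25 in the target list. The cause of these changes was not tested.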
